A study of Homo sapiens with 6 samples.

Results

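An R-loop holds an RNA:DNA hybrid, usually made behind RNA polymerase, and an unpaired DNA strand. Cells limit them in several ways. RNase H1 and RNase H2 digest the RNA of the hybrid, and the spliceosomal helicase AQR unwinds RNA structures and keeps R-loops low. Topoisomerases TOP1 and TOP3B release the negative supercoiling behind RNA polymerase that opens the DNA for hybrid formation. The THO complex, which includes THOC1, packages the nascent RNA, and the 5′ to 3′ exonuclease XRN2 removes the RNA that remains on chromatin at the end of a gene. The R-loops examined here are those at the genes that encode these 9 proteins.

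The 9 genes are *RNASEH1*, *RNASEH2A*, *RNASEH2B*, *RNASEH2C*, *AQR*, *TOP1*, *TOP3B*, *THOC1* and *XRN2*, chosen by name from 64486 gene records of GENCODE release 44 mapped to GRCh37 (hg19). A peak was counted for a gene when it overlapped the gene record or the 2 kb on either side by at least 1 bp. This gave 10 of 10231 R-loop peaks in untreated cells and 12 of 11085 in treated cells. HEK293T cells, a transformed human embryonic kidney line of wild-type genotype in every sample, were left untreated or exposed to 10 μM N2-heptynyl-dG, a nucleoside that leaves an alkyl group in the minor groove of DNA after incorporation, for 3 h. All cells were then given 5 mM N3-kethoxal for 10 min, which labels guanines of single-stranded DNA for strand-specific sequencing (spKAS-seq). The labels give 2 samples per condition and 2 inputs of untreated cells, and 1 peak list per condition was analysed. Each peak is listed by its position and strand only, with no height, so no value below has an error between replicates, depth is unknown, and the conditions were compared without a test. A peak in 1 list only was not called in the other condition, and its signal there was not examined.

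A peak is called sense when its listed strand is that of the gene and antisense otherwise. The lists do not say whether the sign stands for the displaced strand or for its complement. Of the peaks that fell at exactly 1 protein-coding gene, 72.9% in untreated and 71.5% in treated cells had the strand of that gene. At the 9 genes, 8 of 10 untreated and 10 of 12 treated peaks were sense. These counts were not limited in that way and include peaks that also lie in another protein-coding gene.

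In both lists, 7 of the 9 genes had an R-loop peak. Among 20163 protein-coding genes, 41.7% had one in untreated cells and 43.8% in treated cells. *RNASEH2A*, *AQR*, *TOP1*, *TOP3B*, *XRN2* and *RNASEH1* had peaks in both lists, *RNASEH2C* in the treated list only, *THOC1* in the untreated list only, and *RNASEH2B* in neither. Over all protein-coding genes, 36.3% had peaks in both lists, 7.53% in the treated list only, 5.42% in the untreated list only and 50.8% in neither. Transcription was not analysed here, so the protein-coding genes were not limited to those transcribed in HEK293T cells. The share of protein-coding genes with a peak also varied with gene length. It was 32.1% in untreated and 32.8% in treated cells for genes shorter than 10000 bp, the class of *RNASEH2A* and *RNASEH2C*, and 45.6% and 47% for genes of 10000 to 30000 bp, the class of *RNASEH1* and *TOP3B*. For genes of 30000 to 60000 bp, the class of *THOC1*, it was 47.3% and 50.3%. The share was 47.8% and 51.6% for genes of 60000 to 100000 bp, the class of *TOP1* and *XRN2*, and lower again, at 40.6% and 44%, for genes of 100000 bp or more, the class of *RNASEH2B* and *AQR*.

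**Figure D1:**
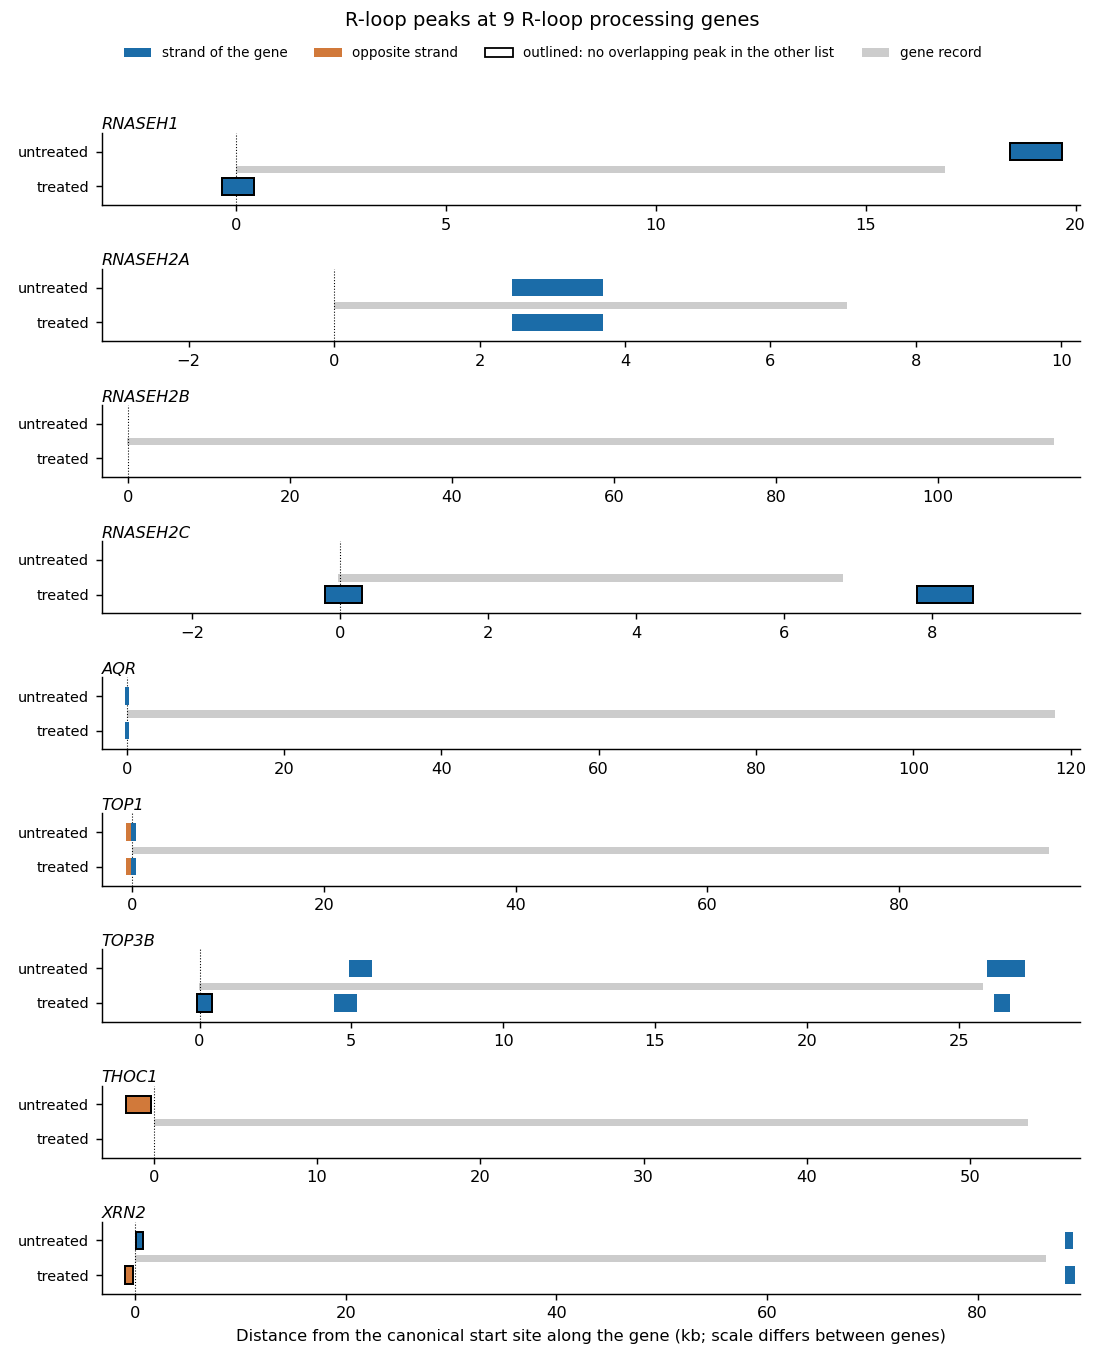
Each panel shows 1 gene (gray bar, gene record) with its R-loop peaks in untreated cells above and in treated cells below, against the distance from the canonical start site in kb. Blue peaks lie on the strand of the gene and orange peaks on the opposite strand, and the 3 untreated and 5 treated peaks with a black outline overlap no peak of the other list.

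Apart from the peaks beyond the 3′ ends of *RNASEH1* and *RNASEH2C*, the peaks found in 1 list only lay at the 5′ ends of the genes. A sense peak covered the canonical start site of *AQR* and *TOP1* in untreated cells, and of *AQR*, *TOP1*, *RNASEH1*, *RNASEH2C* and *TOP3B* in treated cells. These are 2 and 5 of the 9 genes. Over the protein-coding genes the shares were 13.9% and 15.6%, with 11.4% covered in both lists, 4.17% in the treated list only and 2.45% in the untreated list only. All of these start-site peaks except that of *RNASEH1* were 500 bp wide, so that 0 untreated and 1 treated genes were left when only wider peaks were counted, against 6.85% and 7.98% of protein-coding genes. None of the 9 genes had such a peak in the untreated list only. However, the untreated peak of *XRN2* begins 32 bp past its start site, and when sense peaks within 250 bp of a start site were counted, a limit chosen after the values were seen, the numbers were 3 and 5 of 9 genes, against 16.1% and 18.3% of protein-coding genes.

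The reference sequence (GRCh37) directly upstream of these 5 gene records, as far as it lies within the peak and up to 100 bases, is given below on the strand of the gene and 5′ to 3′, since these promoter stretches are where the lists hold the same or different peaks. Capitals mark runs of at least 3 G or 3 C. The sequences of *AQR* and *TOP1* lie under a peak of both lists.
AQR, chr15:35261944-35262043, minus strand: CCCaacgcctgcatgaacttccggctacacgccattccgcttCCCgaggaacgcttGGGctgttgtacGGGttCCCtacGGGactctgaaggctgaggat
TOP1, chr20:39657362-39657461, plus strand: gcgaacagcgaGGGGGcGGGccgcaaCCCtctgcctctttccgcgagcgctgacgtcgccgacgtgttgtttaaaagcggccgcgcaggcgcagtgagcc
Those of *RNASEH1*, *RNASEH2C* and *TOP3B* lie under a peak of the treated list only.
RNASEH1, chr2:3605924-3606023, minus strand: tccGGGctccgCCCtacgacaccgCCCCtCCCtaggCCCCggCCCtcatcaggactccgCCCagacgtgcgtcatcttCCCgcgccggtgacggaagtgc
RNASEH2C, chr11:65488290-65488389, minus strand: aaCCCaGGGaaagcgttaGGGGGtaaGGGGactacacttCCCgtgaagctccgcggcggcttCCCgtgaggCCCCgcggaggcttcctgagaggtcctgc
TOP3B, chr22:22337211-22337260, minus strand: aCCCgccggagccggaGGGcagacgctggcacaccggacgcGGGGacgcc
The *RNASEH1* stretch holds 1 run of G and 7 runs of C, that of *RNASEH2C* 3 and 4, that of *AQR* 3 and 3, that of *TOP1* 2 and 1, and the 50 bases of *TOP3B* 2 and 1. At least 1 such run is common. In the 100 bases upstream of 20141 protein-coding gene records, 82.7% had a GGG and 83.3% a CCC on the gene strand. The number of runs was not counted over those records.

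**Figure D2:**
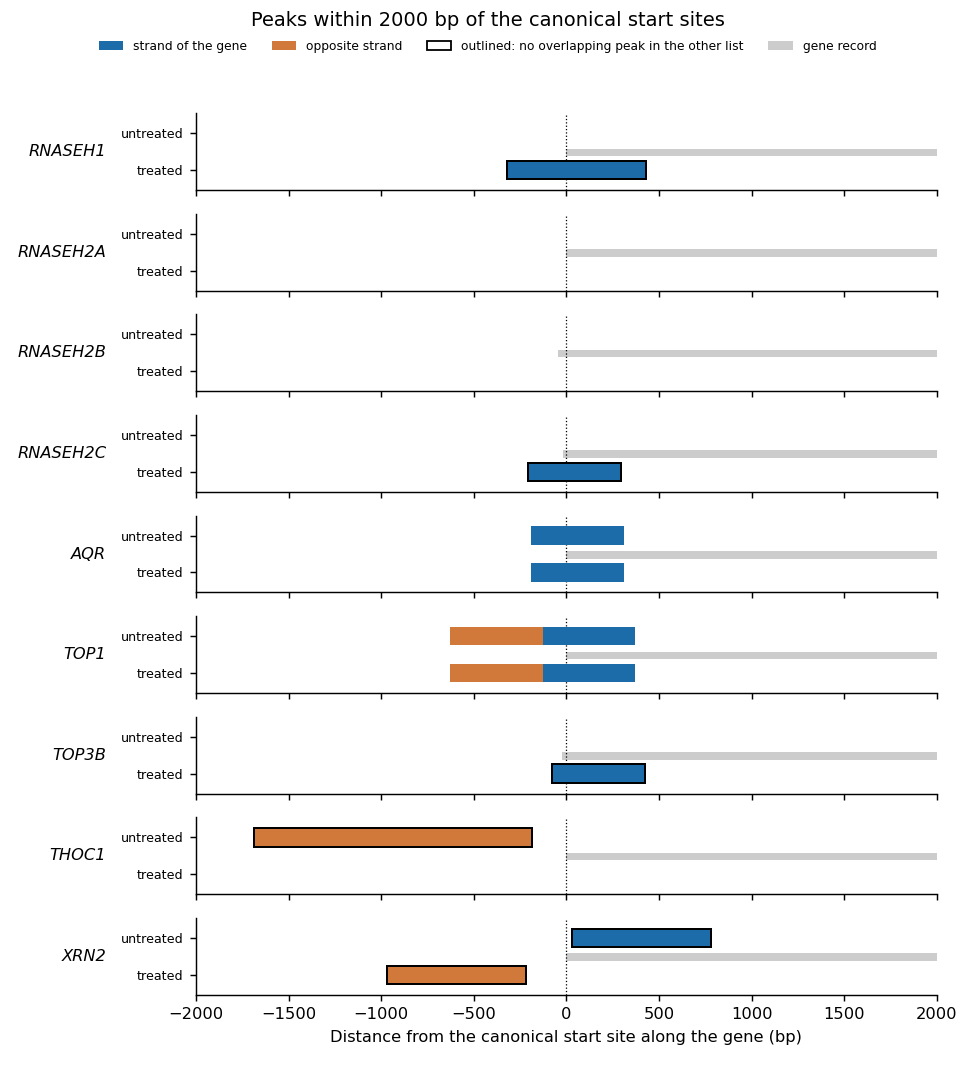
R-loop peaks within 2000 bp of the canonical start site of each gene, plotted along the gene in bp with untreated cells above and treated cells below. Sense peaks (blue) cover the start site at 2 genes in untreated and 5 genes in treated cells, and the antisense peaks (orange) of *TOP1*, *THOC1* and *XRN2* lie upstream.

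*RNASEH1* encodes the RNase H that acts on long hybrids in the nucleus and in mitochondria. The gene is transcribed from the minus strand of chromosome 2, where it spans 3589020 to 3605923. In untreated cells its peak was 1250 bp wide, on the minus strand from 3586245 to 3587494, and began 1526 bp beyond the 3′ end of the gene. Only 475 bp of it lie within the 2 kb counted, and it also lies in the record of ENSG00000286905, a protein-coding gene model of the same strand that contains *RNASEH1*. In treated cells this peak was not listed, and a sense peak of 750 bp was found at the other end of the gene, from 3605495 to 3606244. It covers 321 bp upstream of the start site, 73 bp untranslated and 128 bp coding in exon 1, and 228 bp of the first intron, and it overlaps the divergent noncoding gene *RNASEH1-DT* on the plus strand. The peaks are 18000 bp apart. *RNASEH1* is thus the 1 gene of the 9 with peaks in both lists that did not overlap.

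RNase H2 consists of the catalytic subunit RNASEH2A and the accessory subunits RNASEH2B and RNASEH2C, and also removes single ribonucleotides from DNA. Its 3 genes differed from each other. *RNASEH2A*, on the plus strand of chromosome 19 from 12917398 to 12924454, had the same sense peak of 1250 bp in untreated and treated cells, from 12919845 to 12921094. The peak begins 2447 bp past the start site and covers exon 5 (138 bp, all coding) and 1112 bp of introns 4 and 5. The records of *THSD8* on the plus strand and *HOOK2* on the minus strand also span it. *RNASEH2B*, on the plus strand of chromosome 13 from 51483883 to 51598256, had no peak in either list, and the nearest peak, which is in both lists, lies 427994 bp beyond the gene.

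*RNASEH2C*, a minus-strand gene of chromosome 11 that spans 65481476 to 65488289, had no untreated peak, and the nearest one was 50250 bp from the gene. In treated cells there were 2 sense peaks. The first, of 500 bp from 65487976 to 65488475, covers the start site at 65488269, with 206 bp upstream, 40 bp untranslated and 172 bp coding in exon 1, and 82 bp of the first intron. The second, of 750 bp from 65479726 to 65480475, lies beyond the 3′ end of the record and 4669 bp past the canonical transcript end. It lies in the *KAT5* record on the plus strand, to which it is antisense. With the canonical transcript in place of the gene record, the second peak was not counted.

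*AQR* spans 35143983 to 35261943 of chromosome 15, on the minus strand. Its single peak was the same in both lists, 500 bp on the minus strand from 35261633 to 35262132. It covers 189 bp upstream of the start site, 129 bp untranslated and 75 bp coding in exon 1, and 107 bp of the first intron. No further peak was found in the rest of its 35 exons and introns in either list.

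*TOP1*, on the plus strand of chromosome 20 from 39657462 to 39753127, had the same 2 touching peaks in untreated and treated cells. The sense peak of 500 bp from 39657335 to 39657834 covers the start site and 373 bp of the gene, of which 246 bp are untranslated. The antisense peak of 500 bp from 39656835 to 39657334 ends where the sense peak begins, 128 bp upstream of the start site. No annotated gene of the minus strand overlaps it. Over all peaks, 8.56% of untreated and 9.13% of treated peaks touched a peak of the opposite strand in the same list.

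*TOP3B* acts on both DNA and RNA. The gene spans 22311397 to 22337210 of chromosome 22 (minus strand), and all of its peaks were sense. In the first intron, an untreated peak of 750 bp spanned 22331511 to 22332260 and a treated peak of the same width 22332011 to 22332760, so that the peak of the treated list lay 500 bp nearer to the start site and 250 bp were in common. Beyond the 3′ end, a peak of 1250 bp in untreated cells (22310011 to 22311260) contained the peak of 500 bp in treated cells (22310511 to 22311010). The plus-strand noncoding gene *PPM1F-AS1* overlaps these peaks beyond the 3′ end and the untreated intron peak, which are antisense to it. The treated list had a further peak, of 500 bp from 22336761 to 22337260, over the start site at 22337184, with 76 bp upstream, 58 bp of exon 1, which is untranslated, and 366 bp of the first intron. The nearest untreated peak was 4500 bp away. *TOP3B* had the most peaks of the 9 genes in the treated list, 3, but the summed width of its peaks was lower there, at 1750 bp against 2000 bp in untreated cells.

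THOC1 is a subunit of the THO complex. *THOC1* spans 214520 to 268050 of chromosome 18, on the minus strand. The gene itself held no peak in either list. The untreated list had a plus-strand peak of 1500 bp upstream of it, from 268234 to 269733, which is antisense to *THOC1* and lies within the divergent noncoding gene *THOC1-DT*. It is the widest peak at the 9 genes. In the treated list the nearest peak of either strand to *THOC1* was 150519 bp away. Of all untreated peaks of 1500 bp, 91.5% overlapped a treated peak, and 94.5% of treated peaks of this width overlapped an untreated one.

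*XRN2*, on the plus strand of chromosome 20 from 21283969 to 21370463, differed between the lists at its 5′ end, whereas its 3′ peak was shared. In untreated cells a sense peak of 750 bp from 21284001 to 21284750 began 32 bp past the start site and lay mostly in the first intron (639 bp). In treated cells this peak was not listed, and an antisense peak of 750 bp was listed from 21283001 to 21283750, upstream of the start site. The peaks are 250 bp apart. The antisense peak overlaps the minus-strand noncoding gene ENSG00000275457, which also spans the start site of *XRN2*. The sense peak beyond the 3′ end was listed in both, from 21372251 to 21373000 in untreated and to 21373250 in treated cells. It begins 1788 bp past the end of the gene, and 213 bp of it lie within the 2 kb counted.

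Of the 10 untreated peaks at the 9 genes, 7 overlapped a treated peak, and 7 of the 12 treated peaks overlapped an untreated one. Among all peaks, 74.8% of untreated and 69.5% of treated peaks were shared in this way, so that the count at the 9 genes (70.0% and 58.3%) was within 2 peaks of these shares. Exactly the same peak, in position and strand, was found in both lists in 4 cases, against 32.2% of all untreated and 29.7% of all treated peaks. They are those of *RNASEH2A*, *AQR* and the pair at *TOP1*. The 5 treated peaks without an untreated partner were 500 or 750 bp wide. Over all treated peaks, 55.0% of those of 500 bp, 70.9% of those of 750 bp and 88.4% of those of 1250 bp were shared. Of the 3 untreated peaks without a partner, that of *XRN2* was 750 bp wide, a width at which 75.1% of untreated peaks were shared, compared with 64.4% at 500 bp. Those of *RNASEH1* and *THOC1*, of 1250 and 1500 bp, belong to widths at which 86.4% and 91.5% were shared. The summed width of the peaks at the 9 genes came to 9000 bp in untreated cells and 8250 bp after treatment.

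Sense peaks were also found downstream of the 3′ ends, in the 2 kb beyond the record at *RNASEH1*, *TOP3B* and *XRN2* in untreated cells and at *RNASEH2C*, *TOP3B* and *XRN2* in treated cells. This is 3 of 9 genes in either list, against 12.5% of protein-coding genes in both. Among the 32 other genes of the pathway, described below, 12 had such a peak in untreated and 11 in treated cells. The treated peak of *RNASEH2C* lies 4669 bp past its canonical transcript end. It was not counted with that transcript in place of the gene record.

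**Figure D3:**
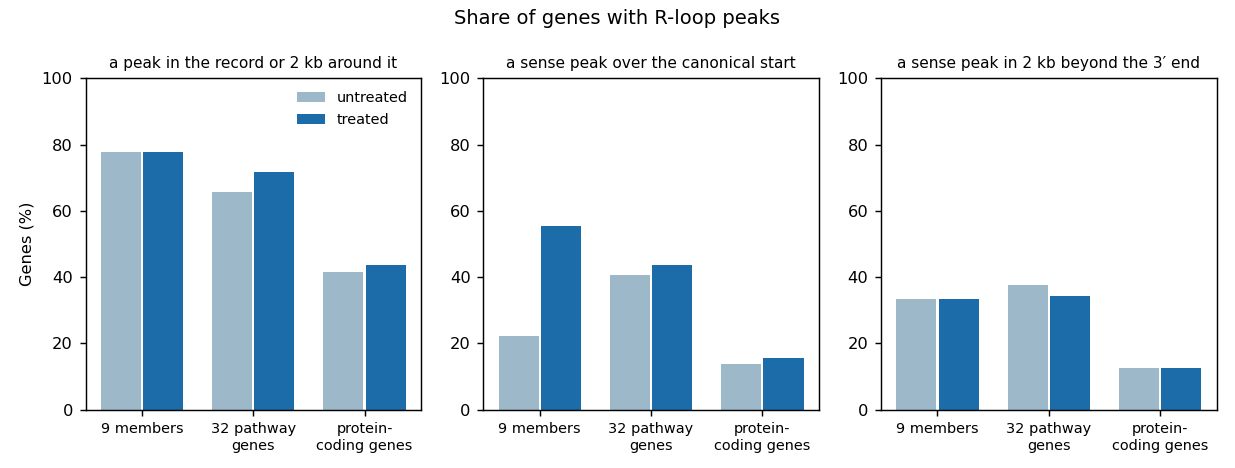
Bars give the percentage of the 9 genes, of 32 other genes of the pathway and of 20163 protein-coding genes that had any peak in the record or 2 kb around it, a sense peak over the canonical start site, or a sense peak in the 2 kb beyond the 3′ end. The count of the 9 genes with a start-site peak was 2 in untreated and 5 in treated cells. That of the 32 genes was 13 and 14, and the share of protein-coding genes 13.9% and 15.6%. With peaks wider than 500 bp only, the 9 genes gave 0 and 1, against 6.85% and 7.98% of protein-coding genes. With sense peaks within 250 bp of the start site, the 9 genes gave 3 and 5, against 16.1% and 18.3%.

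The other genes of the pathway were 32 topoisomerases, hybrid helicases, mRNA export factors, exonucleases and termination factors. A peak was found at 21 of them in untreated cells (65.6%) and at 23 in treated cells (71.9%), 19 of them with peaks in both lists. *TOP1MT*, *TDRD3*, *RTEL1* and *THOC6* had peaks in the treated list only, and *ALYREF* and *XRN1* in the untreated list only. TDRD3 is the partner protein of TOP3B, and its gene had a single treated peak of 500 bp in the gene body. XRN1 is the cytoplasmic relative of XRN2, and its single untreated peak of 500 bp covered the start site. A total of 7 genes had no peak in either list, among them *DDX23*, which encodes an R-loop helicase and was named after its values were seen. Summed over both lists, the most peaks were found at the helicase genes *DDX17* and *DDX5*. *DDX17* had 4 untreated and 5 treated peaks, and *DDX5* had 4 and 3. The export helicase gene *DDX39B* followed, with 2 and 3. A sense peak covered the start site of 13 of the 32 genes in untreated and 14 in treated cells, of which 11 were in both lists, 3 in the treated list only and 2 in the untreated list only. The 3 in the treated list only, *BLM*, *CPSF3* and *DDX39B*, were named after their values were seen. Of the peaks at the 32 genes, 26 of 34 untreated (76.5%) and 26 of 41 treated peaks (63.4%) were shared.

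The GC content of the peaks at the 9 genes was 42.2% to 71.8% in untreated cells, with a median of 57.0%, and 44% to 71.8% in treated cells, with a median of 61.4%. The medians over all peaks were 56.2% and 57.6%. The 3 start-site peaks listed in treated cells only had a GC content of 70.3% (*RNASEH1*), 68.4% (*RNASEH2C*) and 66.4% (*TOP3B*). Each value was above the upper quartile of 64.2% of all treated peaks. Against treated peaks of the same width, for which the upper quartile was 64.5% at 750 bp and 66.8% at 500 bp, that of *TOP3B* was not above it. These quartiles pool peaks at every position, and start-site peaks were not summarised apart. The start-site peak of *TOP1*, which is in both lists, had the highest value at the 9 genes (71.8%), and that of *AQR* had 61.2%. The other treated-only peaks, beyond the 3′ end of *RNASEH2C* and upstream of *XRN2*, had 61.6% and 44%. The peak of *RNASEH1* that was listed only in untreated cells, beyond the 3′ end, had the lowest value, 42.2%. GC skew, which is (G - C)/(G + C) for the bases of the listed strand, was positive in 5 of 10 untreated and 3 of 12 treated peaks, against 49.2% and 43.9% of all peaks. Among the treated peaks, it was highest at the start site of *TOP3B* (0.139) and lowest in its first intron (-0.288), so that peaks of 1 gene and 1 strand differed more than the quartiles of all treated peaks (-0.0805 and 0.0498). At *TOP1* it was negative on both strands, with -0.153 in the sense and -0.185 in the antisense peak.

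**Figure D4:**
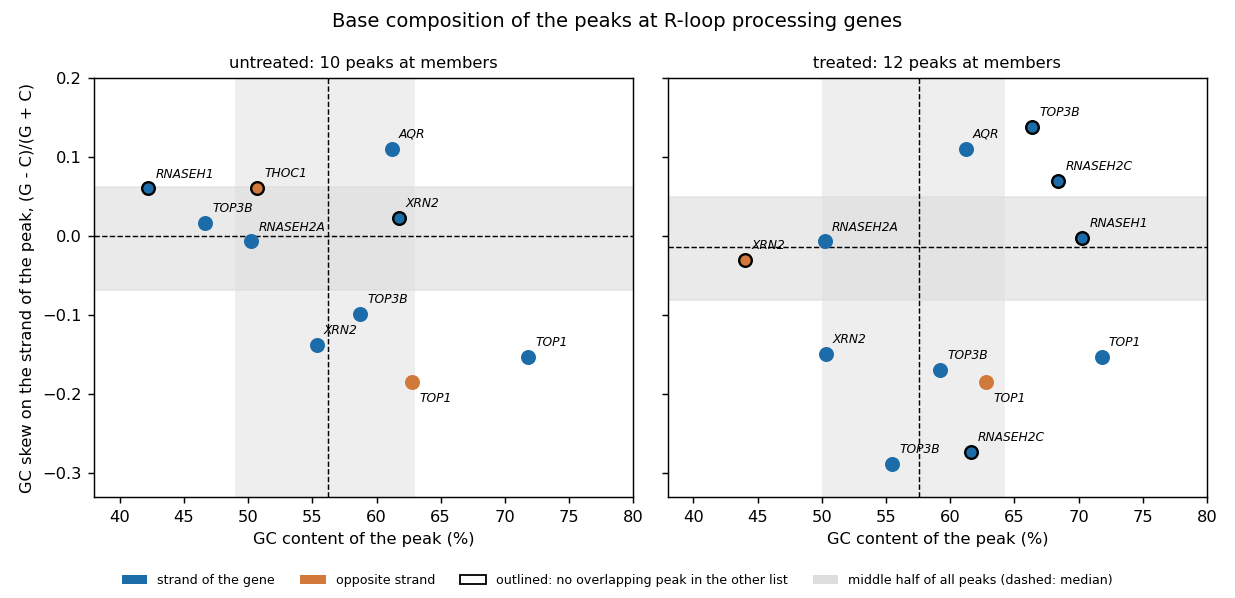
GC content in percent against GC skew on the strand of the peak for the 10 untreated and 12 treated peaks at the 9 genes, with the median (dashed lines) and quartiles (gray bands) of all peaks of the same list. The treated-only peaks at the start sites of *RNASEH1*, *RNASEH2C* and *TOP3B* (outlined) lie to the right of the band for GC content. That band pools all widths and positions, and the *TOP3B* peak (66.4%) is below the upper quartile of treated peaks of its own width (66.8%).

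A G-quadruplex motif, taken as 4 runs of at least GGG separated by 1 to 7 bases, was searched on both strands of each peak. Guanine-rich sequence of this kind can fold when it is single-stranded. None of the 10 untreated and none of the 12 treated peaks held the motif on the strand of the peak, against 18.2% and 19.3% of all peaks. The lists have 4 of these peaks in common, the numbers are small, and the difference was not tested. On the opposite strand it was found in 2 of 10 untreated and 6 of 12 treated peaks, against 23.6% and 26.6% of all peaks. The matches outside exons of coding genes are given 5′ to 3′ on the strand that carries the guanines, with the runs in capitals, because they lie in the regions that differ between the lists or, at *TOP1* and at the 3′ end of *XRN2*, in peaks of both. At *RNASEH1* they lie in the treated-only peak, and the first is the complement of the cytosine runs shown above.
RNASEH1, chr2:3605979-3605999, plus strand: GGGccGGGGcctaGGGaGGGG
RNASEH1, chr2:3606116-3606137, plus strand: GGGatGGGGcGGGGcctatGGG
TOP1, chr20:39657808-39657828, minus strand: GGGccGGGGctGGGGtcGGGG
TOP1, chr20:39657747-39657776, minus strand: GGGGtccGGGGccgccaGGGtcaggccGGG
TOP3B, chr22:22332283-22332303, plus strand: GGGagcaGGGGaGGGacaGGG
TOP3B, chr22:22332381-22332407, plus strand: GGGcaGGGGGGctcatGGGGctgaGGG
TOP3B, chr22:22332597-22332620, plus strand: GGGatggcGGGacatGGGaGGGGG
XRN2, chr20:21283669-21283692, plus strand: GGGagccggaGGGctGGGGctGGG
XRN2, chr20:21372333-21372354, minus strand: GGGGtctgcGGGctGGGccGGG
The 3 matches of *TOP3B* all lie in the part of the intron peak that is in the treated list only. In the part that both lists share, from 22332011 to 22332260, there was none. The first match of *XRN2* lies in the antisense peak that was listed in treated cells only. A further 2 matches in the treated-only peak beyond *RNASEH2C* lie in an exon of a coding gene and are not shown. A match is a description of the sequence, and folding was not measured.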

How the data were processed

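Single-stranded DNA of untreated and N2-heptynyl-dG-treated HEK293T cells was labelled with N3-kethoxal and sequenced with its strand by the authors (spKAS-seq). Reads were trimmed with Trim Galore, aligned to hg19 with Bowtie2 and freed of duplicates with Picard by the authors, who defined R-loops from 2 replicates by an earlier procedure. The deposited lists, 1 per condition and attached to replicate 1, give only peak positions in bp and strand. All but 6 untreated and 3 treated peaks have a width that is a multiple of 250 bp. Signal tracks and inputs were not analysed here, so depth per sample is unknown.

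Peaks were assigned to the 9 genes and to all protein-coding genes of GENCODE release 44 mapped to GRCh37, with sharing counted from 1 bp on either strand. Start sites are those of the Ensembl canonical transcript. Base composition was read from GRCh37, leaving out peaks that are more than 50% masked or on contigs. The 9 genes and the pathway list were chosen with earlier results of these data known. By rule, the genes named are the 9 genes and genes that overlap a peak of the 9. Of the pathway genes, those with peaks in 1 list only and the 3 with the most peaks over both lists are named. *BLM*, *CPSF3*, *DDX23* and the genes at neighbouring peaks fall outside this rule and were named after their values were seen. Other flanks, the canonical transcript, the strand, peak width and stricter overlaps were tried as alternatives. No test was run, since each condition has 1 list. Counting was tested on simulated data with known answers, and the sharing of peaks between the lists was checked against bedtools 2.31.1. Python 3.11.15, numpy 2.4.6, pysam 0.24.0 and matplotlib 3.10.9 were used.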

Additional observations from a re-analysis of the deposited data

How the results depend on the processing

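No paired analysis was possible because the lists analysed here hold no values per replicate. The lists hold no score, so a stricter peak threshold was replaced by a width above 500 bp. With such peaks only, 7 untreated and 6 treated peaks remained at the 9 genes (13 in all), so that the sign of the difference turned, 3 of each list were shared, and start-site sense peaks were found at 0 untreated and 1 treated genes (6.85% and 7.98% of protein-coding genes). In the same setting peaks in both lists were found at 12 pathway genes and 4557 protein-coding genes. Without flanks there were 5 untreated and 7 treated peaks (12 in all), with 4 shared in each list. In both settings fewer peaks enter by construction. For 35 results, 137 of 173 values recomputed under the alternatives stayed within 1.5 times. These include the counts of each gene, where a count that stayed at 0 is scored as unchanged. Without those counts and the start-site counts over protein-coding genes, 64 values stayed within this limit and 13 did not. The number of the 9 genes with a peak ranged from 5 to 7 in both lists, while the share of protein-coding genes ranged from 28.3% to 45.4% in untreated and 29.5% to 47.6% in treated cells. With start sites of any transcript the counts stayed at 2 and 5 of the 9 genes, against 17.2% and 19% of protein-coding genes.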

Other observations

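Peaks more than 2 kb but at most 20 kb from the 9 gene records belong to their neighbourhood and were not counted above. There were 7 such peaks in untreated and 4 in treated cells, at 4 and 3 of the 9 genes, and 28.9% and 30.3% of protein-coding genes had one. The mean number per gene was 0.778 and 0.444 at the 9 genes and 0.405 and 0.436 over protein-coding genes. The difference was not tested. The genes named here were chosen after their values were seen. Upstream of *RNASEH1*, both lists had the same plus-strand peak of 750 bp, 16571 bp from the gene, at *RPS7*, which encodes a ribosomal protein. Upstream of *AQR*, both lists had the same minus-strand peak of 750 bp at the zinc-finger gene *ZNF770*, and the untreated list had a second one of 500 bp. Near *RNASEH2A*, a minus-strand peak of 1750 bp at *PRDX2*, which encodes a peroxiredoxin, was 500 bp wide in treated cells. A second one of 500 bp at the same gene was identical in both lists. A plus-strand peak of 500 bp at *JUNB* was listed in untreated cells only. Downstream of *TOP1*, a plus-strand peak of 500 bp at *PLCG1* was listed in untreated cells only. No such peak was found near *RNASEH2B*, *RNASEH2C*, *TOP3B*, *THOC1* or *XRN2* in either list.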
